A study of Mus musculus with 12 samples.

Results

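The protamines and transition proteins are the small basic proteins that package the DNA of the sperm head, and the 5 mouse genes followed here were Prm1, Prm2, Prm3, Tnp1 and Tnp2. They were taken by gene symbol from the assembled transcripts that match, lie within or share junctions or exons with an annotated transcript (classes =, c, j and o), and their reads were summed per gene. This gave 5 of 24516 genes and 7 of 60321 transcripts of those classes. Total RNA of whole testes was sequenced from 12 wild-type C57BL/6 male mice, an inbred laboratory strain without a transgene or treatment. The ages were 3, 6, 12 and 18 months after birth (3M, 6M, 12M and 18M), with 3 mice per age and 1 library per mouse, and the question was which transcripts change as the testis ages. Libraries are named by age and mouse number, such as 12M-3, and whether mice of an age were littermates is not known.

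In elongating spermatids most histones leave the DNA and are replaced by transition proteins, which in turn give way to protamines. Protamines are rich in arginine, which binds the DNA backbone, and in cysteine, whose disulfide bonds lock the condensed chromatin. Loss of protamines impairs male fertility in mice, and Prm3 lies among these genes but encodes an acidic protein that does not package DNA. Their mRNAs are made in round spermatids, held silent by RNA-binding proteins and translated days later.

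Prm1 (NM_013637, chr16:10796332-10796823), Prm2 (NM_008933, chr16:10791377-10792105), Prm3 (NM_013638, chr16:10790508-10790914) and Tnp2 (NM_013694, chr16:10787935-10788655) lay in 1 cluster of 8889 bases on the minus strand of mm10. Tnp1 (NM_009407, chr1:73015075-73015899) stood alone on the minus strand of chromosome 1. Prm3 had 1 exon and each of the other genes had 2, and the transcripts were 400 to 624 nt long. In the cluster, 462 bases separated Prm3 from Prm2, 1852 separated Tnp2 from Prm3 and 4226 separated Prm2 from Prm1.

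The coding sequences of Prm1 and Tnp1 are shown because they carry the chemistry of each family. They were read from the GENCODE vM21 transcripts of the same build, 5′ to 3′, with the codons of arginine and lysine in capitals.
Prm1: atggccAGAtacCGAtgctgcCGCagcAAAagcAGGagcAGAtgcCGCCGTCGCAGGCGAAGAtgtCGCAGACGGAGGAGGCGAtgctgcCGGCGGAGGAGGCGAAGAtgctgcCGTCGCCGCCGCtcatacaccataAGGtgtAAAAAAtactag
Tnp1: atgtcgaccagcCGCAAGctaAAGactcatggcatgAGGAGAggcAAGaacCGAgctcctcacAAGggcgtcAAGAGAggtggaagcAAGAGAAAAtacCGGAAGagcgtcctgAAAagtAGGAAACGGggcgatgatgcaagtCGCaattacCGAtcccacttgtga

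Of the 51 codons of Prm1, 28 coded for arginine, 3 for lysine and 9 for cysteine. Prm2, whose product is made as a longer precursor, had 38 arginine, 16 histidine and 7 cysteine codons of 107. Tnp1 held arginine and lysine in nearly equal number, 11 and 10 of 55 codons, and no cysteine. Tnp2 had 16 arginine, 11 lysine and 22 serine codons of 117. Prm3 stood apart from them, with 2 arginine and 7 lysine codons against 30 for the acidic residues, of 101.

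The 120 bases before each start site are also shown. They come from RefSeq (GRCm38.p6, the same build as mm10), on the minus strand, 5′ to 3′. Capitals mark matches to TGANNTCA, a loose form of the cAMP response element TGACGTCA that CREM binds in spermatids, or to the TATA-box forms TATATA and TATAAA, which overlap in Prm2.
Prm1 (chr16:10796824-10796943): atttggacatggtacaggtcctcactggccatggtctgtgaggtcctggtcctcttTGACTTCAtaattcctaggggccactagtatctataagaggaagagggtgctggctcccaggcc
Prm2 (chr16:10792106-10792225): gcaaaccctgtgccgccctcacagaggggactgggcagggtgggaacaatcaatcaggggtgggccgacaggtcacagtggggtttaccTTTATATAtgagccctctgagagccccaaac
Prm3 (chr16:10790915-10791034): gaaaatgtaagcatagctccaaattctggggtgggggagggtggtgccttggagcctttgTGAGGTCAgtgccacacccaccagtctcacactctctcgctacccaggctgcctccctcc
Tnp1 (chr1:73015900-73016019): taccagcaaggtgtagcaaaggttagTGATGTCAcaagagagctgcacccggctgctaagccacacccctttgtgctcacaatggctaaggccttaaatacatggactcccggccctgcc
Tnp2 (chr16:10788656-10788775): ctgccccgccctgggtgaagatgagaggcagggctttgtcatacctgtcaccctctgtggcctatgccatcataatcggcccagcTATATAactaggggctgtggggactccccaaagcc

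TGANNTCA began at position -64 of Prm1, -60 of Prm3 and -94 of Tnp1, counted from the start site. Over windows of 300 bases and both strands, 14.1% of 32851 mouse promoters held it. TATATA, present in 5.67% of promoters, began at -29 in Prm2 and -35 in Tnp2. TATAAA was found only on the opposite strand of Prm2, at -31, and in 13.6% of all promoters. The full TGACGTCA was in none of the 5 windows and in 1.79% of all promoters, while CCAAT was found in Prm3 alone, at -150, and in 37.4% of all promoters. These matches describe letters only, and no binding was measured.

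The libraries held between 50924104 and 71803379 estimated reads. The 5 genes took from 1.15% of them in 6M-3 to 1.73% in 12M-3, and from 4.79% to 6.71% of the summed FPKM (fragments per kilobase of transcript and per 1000000 mapped fragments, as given by the authors), so 6043 reads or more lay behind every value. Elongating spermatid markers were abundant in all libraries (8 of 8 measured, 9307 to 11908 CPM in sum, where CPM is counts per 1000000 reads after TMM scaling). Of 4 epididymal markers, Lcn5, Crisp1 and Defb20 had means under 1 CPM and Rnase10 lay between 3.70 and 4.65 CPM. Whole testis was measured, so fewer spermatids and less RNA per spermatid cannot be told apart.

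In every library the levels per length stood in the order Prm2, Prm1, Tnp2, Tnp1 and Prm3, and the first 4 were the 4 highest of all genes. Over the 12 libraries Prm2 had a mean of 8272 ± 952 FPKM (SD, n = 12) and ranked first, Prm1 6003 ± 759, Tnp2 5542 ± 837 and Tnp1 3720 ± 491. Prm3, at 301 ± 37.0 FPKM, ranked between 117 and 204. The highest gene outside the family reached 2053 to 2702 FPKM and was Ldhc, Gm1821 or Smcp. The median of genes with reads was 2.27 FPKM.

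The ranges of neighbouring genes in this order overlapped over the 12 libraries for Prm2 with Prm1 and for Prm1 with Tnp2. Within a library Prm2 exceeded Prm1 by 1.38 ± 0.07-fold in FPKM, and Prm1 exceeded Tnp2 by only 1.09 ± 0.05-fold, with a lowest ratio of 1.03 in 12M-3. Tnp2 exceeded Tnp1 by 1.49 ± 0.13-fold and Tnp1 exceeded Prm3 by 12.4 ± 1.2-fold, without overlap of their values. The close step from Prm1 to Tnp2 depended on how reads were divided: with the annotated transcript NM_013637 alone, Prm1 in 18M-1 was at 5083 FPKM and Tnp2 at 5171.

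**Figure D1:**
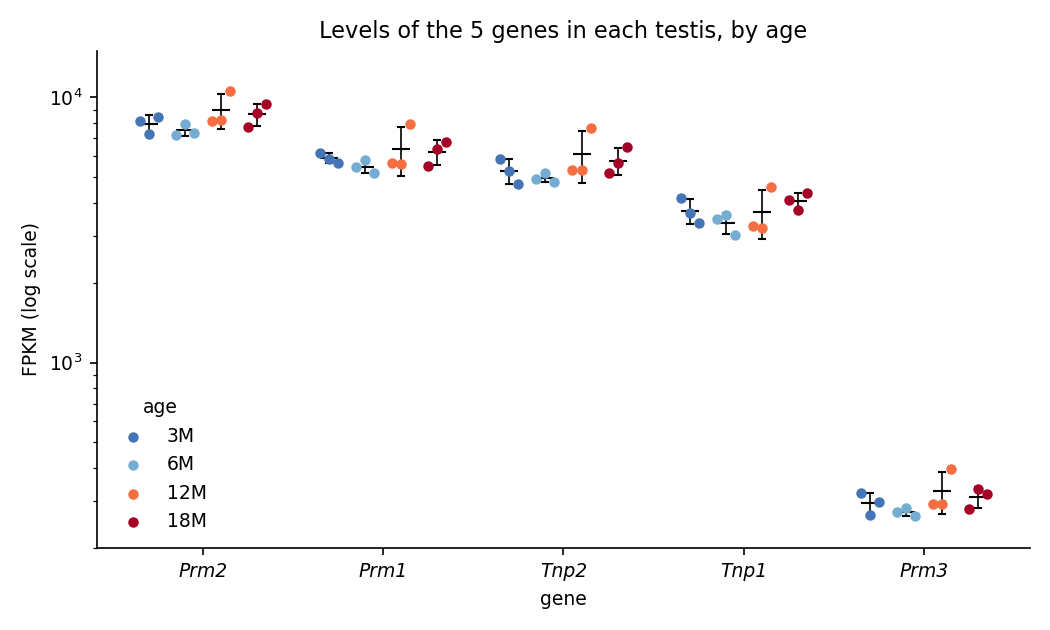
FPKM (log scale) of Prm2, Prm1, Tnp2, Tnp1 and Prm3 in each of the 12 libraries, coloured by age, with the mean and SD of the 3 mice of an age as a bar. The order of the genes is the same at all 4 ages, and at 12M 1 mouse (12M-3) lies above the other 2 in all 5 genes.

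Prm2, the more abundant protamine, was measured at 8159, 7299.8 and 8440.4 FPKM in the 3M mice. The 6M mice had 7235, 7962 and 7359.9 FPKM, the 12M mice 8154, 8208 and 10551, and the 18M mice 7758, 8719.8 and 9412. The highest value was that of 12M-3, followed by 18M-3, and the ranges of 3M and 18M overlapped. From 3M to 18M the fitted log2 fold change of its reads was 0.12 ± 0.09 (SE, adjusted p = 0.625 in edgeR).

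Prm1, the protamine common to all mammals, had 6174, 5851 and 5676 FPKM in the 3M mice and 5474, 5807 and 5179 in those of 6M. The 12M mice had 5637, 5603 and 7959 FPKM and the 18M mice 5489.9, 6380.2 and 6810.4. As for Prm2, 12M-3 was highest and 18M-3 second, while 18M-1 lay below all 3M mice. The log2 fold change from 3M to 18M was 0.09 ± 0.08 (SE, adjusted p = 0.633 in edgeR).

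Tnp2, the serine-rich transition protein, had 5877, 5293 and 4726 FPKM in the 3M mice and 4945, 5179 and 4798 in those of 6M. The 12M mice had 5314, 5344 and 7699 FPKM and the 18M mice 5171, 5648 and 6510.0. Its 12M-3 value was 1.44 times the median of the other 11 libraries on the CPM scale, above the 1.25 to 1.37 of the other 4 genes. The log2 fold change from 3M to 18M was 0.13 ± 0.11 (SE, adjusted p = 0.661 in edgeR).

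Tnp1, the lysine- and arginine-rich transition protein, had 4191, 3658 and 3374 FPKM in the 3M mice and 3488, 3599 and 3024 in those of 6M. The 12M mice had 3271, 3221 and 4578 FPKM and the 18M mice 4110.2, 3765 and 4362. Here 12M-1 and 12M-2 lay below all 3M mice, as they did for Prm1, while the 18M mice overlapped with those of 3M. The log2 fold change from 3M to 18M was 0.13 ± 0.09 (SE, adjusted p = 0.594 in edgeR).

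Prm3, encoding the acidic protein, had 322, 266 and 297 FPKM in the 3M mice and 273, 283 and 263 in those of 6M. The 12M mice had 294, 292 and 396 FPKM and the 18M mice 280.0, 332 and 319. Its FPKM was at least 11.0-fold below that of Tnp1 in each library, and 12M-3 was again highest and 6M-3 lowest. The log2 fold change from 3M to 18M was 0.08 ± 0.09 (SE, adjusted p = 0.772 in edgeR).

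Between 3M and 18M none of the 5 genes passed an adjusted p of 0.05 in edgeR (quasi-likelihood test over 24605 genes and unnamed loci), where 0.0650% of all features passed, nor did any have an unadjusted p under 0.05. DESeq2 called none either, and 1.63% of 18242 features. All 5 fitted changes were positive, with a median log2 of 0.12, against 0.01 over all features tested, of which 51.4% were positive. Each of the 5 changes lay within 2 SE of 0. The genes varied together between libraries, so their signs are not 5 separate observations, here or between other ages. In none of the 5 were the libraries of both ages separate, as they were in 19.7% of all features.

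Over all 4 ages, the slope was 0.013 ± 0.007 per month on the log2 scale for Prm2 (SE, adjusted p = 0.387 in edgeR), which amounts to 1.14-fold over 15 months. The slopes of the other genes lay between 0.010 and 0.014 per month. None of 5 passed in edgeR, where 0.172% of 24950 features did, with no unadjusted p under 0.05, and DESeq2 called none of them and 2.54% of 22039 features. Without 12M-3 the slopes lay between 0.0079 and 0.011 per month, and the smallest adjusted p in edgeR was 0.322, again that of Prm2.

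Between consecutive ages, 0 of 15 tests passed in edgeR, with 1 unadjusted p under 0.05, from 6M to 12M. In DESeq2 4 of 15 had an unadjusted p under 0.05, 1 from 3M to 6M and 3 from 6M to 12M. Over all features, 3.94% from 3M to 6M, 7.49% from 6M to 12M and 3.57% from 12M to 18M had such a p in edgeR. The shares in DESeq2 were 4.51%, 6.45% and 2.69%. By adjusted p DESeq2 called none either, where it called 0.382% of all features from 3M to 6M, 0.461% from 6M to 12M and 0.191% from 12M to 18M. From 3M to 6M the fitted log2 changes lay between -0.16 (Tnp1) and -0.09 (Prm2), negative in 5 of 5 genes, with no gene separate between the ages (9.54% of 24568 features were) and with 0.0733% of features called. From 12M to 18M they lay between -0.08 (Tnp2) and 0.15 (Tnp1), with no gene separate (9.06% of features) and 0.0203% of features called.

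The step from 6M to 12M was the one where libraries separated. For Prm2, Prm3 and Tnp2, 3 of 5 genes, each 12M mouse was above each 6M mouse in CPM, as 15% of 24591 features were separate in one direction or the other, and 0.0407% of features were called. For Prm2 the 6M mice had 4831 to 5315 CPM and the 12M mice 5459.7 to 6930 CPM, a log2 change of 0.26 ± 0.10 (SE, unadjusted p = 0.035, adjusted p = 0.666 in edgeR). Tnp2 had a log2 change of 0.30 ± 0.14 and Prm3 of 0.27 ± 0.12, with adjusted p of 0.683 and 0.676 in edgeR.

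Without 6M-3, the library lowest in CPM in all 5 genes, the log2 changes of this step were 0.23 for Prm2, 0.27 for Tnp2 and 0.23 for Prm3. Those from 3M to 6M then lay between -0.09 and -0.06. Without 12M-3 the step from 6M to 12M was smaller, with log2 changes of 0.14 ± 0.05 for Prm2, 0.12 ± 0.04 for Tnp2 and 0.12 ± 0.05 for Prm3 (SE). The standard errors were smaller too, and the unadjusted p in edgeR were 0.027, 0.035 and 0.059, against 0.035, 0.063 and 0.054 with 12M-3. Adjusted p without 12M-3 were 0.714 to 0.744 in edgeR. For Prm1 the log2 change was then 0.05 in place of 0.23, and for Tnp1 -0.04 in place of 0.13. From 12M to 18M, Tnp1 then had the largest value, 0.32 ± 0.07 (SE), with an unadjusted p of 0.0044 and an adjusted p of 0.501 in edgeR.

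**Figure D2:**
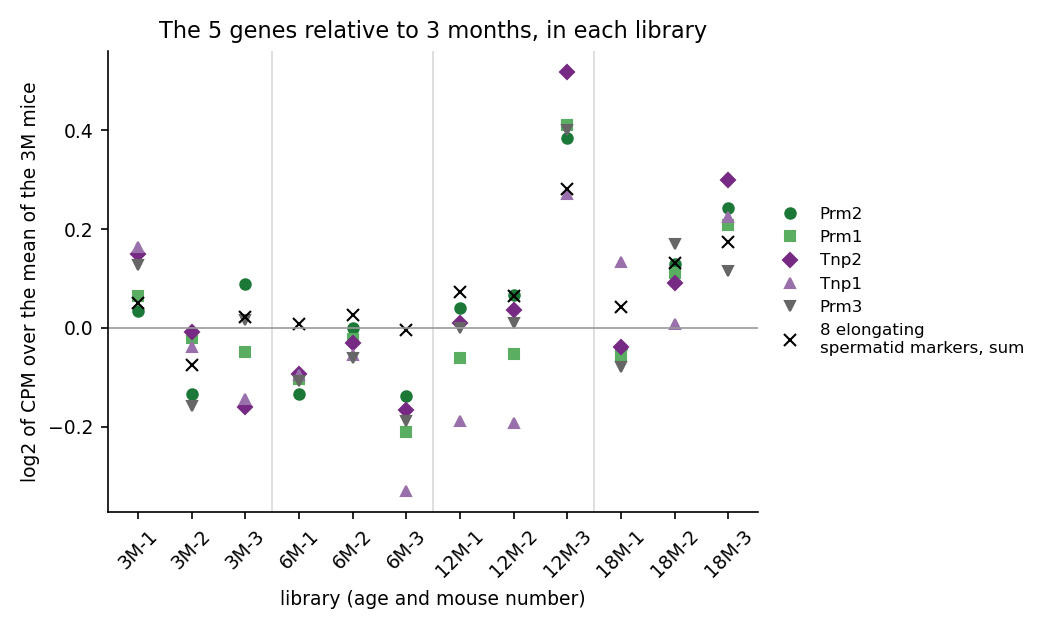
CPM of each of the 5 genes in each of the 12 libraries, as log2 of the value over the mean of the 3M mice, with the summed CPM of 8 elongating spermatid markers as crosses. All 5 genes and the sum of the markers are highest in 12M-3, and all 5 genes are lowest in 6M-3.

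The library 12M-3 carried the highest value of all 5 genes, from 1.26 (Prm2) to 1.41 (Tnp2) times the mean of 12M-1 and 12M-2 in CPM. On the CPM scale 6M-3 was the lowest of all 5, while in FPKM Prm2 was lowest in 6M-1 and Tnp2 in 3M-3. The sum of the 8 elongating spermatid markers was also highest in 12M-3, at 11908 CPM. It was 11057 in 18M-3 and between 9307 and 10738 in the other 10 libraries. The part of these markers in the result was not tested. Akap4 had 2044 CPM in 12M-3, below its mean of 2075, and Cabs1 had 666 CPM, below its highest value of 668. Each of the other markers was highest in 12M-3. Smcp, the sperm mitochondria-associated cysteine-rich protein, reached 2529 CPM in 12M-3 with a mean of 1957. From 3M to 18M all 8 markers had positive log2 changes with a median of 0.14, near the 0.12 of the 5 genes. None passed in edgeR or DESeq2. In edgeR 4 of the 8 had an unadjusted p under 0.05, as did 12% of all features.

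Markers of the other germ cells and of somatic cells were measured in the same libraries. The 6 spermatocyte markers summed to 3278 to 3533 CPM with a median log2 change of -0.01 from 3M to 18M, and the 6 round spermatid markers to 814 to 1076 CPM with 0.21. No round spermatid marker passed in edgeR (2 unadjusted p under 0.05), and DESeq2 called 2, Acrv1 and Spaca1. Of the 6, 5 had positive log2 changes, and Acr had -0.03 ± 0.09 (SE). The 6 Leydig cell markers, which include the steroid-producing enzymes, summed to 795 to 956 CPM at 3M and 515 to 711 CPM at 18M, with a median log2 change of -1.05. Of these Leydig genes none passed in edgeR (5 unadjusted p under 0.05), and DESeq2 called 4, Cyp11a1, Cyp17a1, Lhcgr and Star. Over all features from 3M to 18M, 12% had such a p in edgeR and DESeq2 called 1.63%. Hsd3b1, an enzyme of the same list, went the other way, with a log2 change of 0.28 ± 0.22 (SE). Insl3, with a mean of 527 CPM the largest part of the Leydig sum, changed by -0.32 ± 0.12 (SE). The Leydig sum was 755 to 1226 CPM at 6M and 584 to 627 CPM at 12M. In 6M-3, where all 5 genes were lowest in CPM, the sums of Leydig (1226 CPM), Sertoli (1070 CPM) and macrophage markers (18.4 CPM) were the highest of the 12 libraries, and their part in the result was not tested. Sertoli cell markers lay between 799 and 1070 CPM, and those of spermatogonia, peritubular myoid cells, macrophages and red cells each summed to 79.8 CPM or less.

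Across the 12 libraries the CPM of the 5 genes had a coefficient of variation of 11.3% (Prm2) to 14.7% (Tnp2). Among 2394 genes with a mean of 100 CPM or more the median was 5.88%, and 88.1% to 93.1% of them varied less than a member did. The genes also varied together. The closest pair was Prm1 and Tnp2, with Pearson r = 0.956 and Spearman rho = 0.818 (n = 12 libraries, permutation p = 3.0e-05 and 0.0021, adjusted over 10 pairs 0.00015 and 0.0073). Without 12M-3 and 18M-3, the libraries farthest from the median, r was 0.811.

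Prm2 and Tnp1 were the least close, with r = 0.627 and rho = 0.469 (n = 12, permutation p = 0.028 and 0.128, both unchanged by the adjustment), and r = 0.186 without 12M-3 and 18M-3, so this relation rested on those libraries. The 10 values of r lay between 0.627 and 0.956, and between 0.457 and 0.899 without 12M-3. Around the means of each age they lay between 0.624 and 0.953. All share the libraries' depth and cell composition.

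Among 15333 other genes with a mean CPM of 1 or more, 76 had r of 0.9 or more with the mean standardized level of the 5 genes, and 58 had r of -0.9 or less. The median r was -0.13. The 5 most alike were Spert, 1700092M07Rik, Iqcf3, 1700034E13Rik and 1700029H14Rik, with r of 0.975, 0.968, 0.962, 0.954 and 0.954 over 12 libraries. Each was highest in 12M-3, and without that library r was 0.901 to 0.946. Spert had a mean of 693 CPM and 820 CPM in 12M-3.

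Ratios between the genes within a library remove what all of them share, and the balance of Prm1 to Prm2 is a measure used in sperm quality studies. Per library, Prm1 had 0.467 ± 0.023 reads for each Prm2 read (SD, n = 12), from 0.432 in 3M-3 to 0.514 in 3M-2. The mean was 0.477 in the 3M mice, 0.468 in those of 6M, 0.455 in those of 12M and 0.468 in those of 18M, so both extremes belonged to the youngest age. The log2 ratio differed by -0.02 between 18M and 3M (two-sided exact permutation p = 0.7, where 0.1 is the smallest p that 3 against 3 mice allow).

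Of the 5 ratios computed, Tnp1 to Tnp2 and Prm1 to Tnp1, which share Tnp1, each had 1 age that stood apart from all others, 12M. Tnp1 to Tnp2 was 0.552, 0.535 and 0.553 in the 3M mice and 0.546, 0.538 and 0.488 in those of 6M. The 12M mice had 0.477, 0.467 and 0.461 and the 18M mice 0.616, 0.516 and 0.519. All 12M mice, 12M-3 included, lay below every mouse of the other ages, while 18M and 3M overlapped with a log2 difference of 0.0043 (exact permutation p = 1.0). For Prm1 to Tnp1 the 12M mice had 1.62, 1.63 and 1.63 reads of Prm1 for each of Tnp1, above the 1.298 to 1.61 of the other 9 mice, the nearest of which was 6M-3. The separation at 12M was not tested, since the comparisons were those between 3M and 18M and across ages.

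Protamine over transition protein reads, Prm1 and Prm2 against Tnp1 and Tnp2, had a ratio of 1.64 ± 0.10 (SD, n = 12). It was widest among the 3M mice, at 1.51, 1.54 and 1.87. Prm3 had 0.051 ± 0.0023 reads per Prm1 read and Prm1 had 1.53 ± 0.11 per Tnp1 read.

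Between 3M and 18M the exact permutation p of the 5 ratios lay between 0.7 and 1.0 (adjusted 1.0), in a comparison where 3 against 3 mice cannot go below 0.1. Over the 12 libraries no correlation of a ratio with age passed (r between -0.17 and -0.0087, rho between -0.32 and 0.086, permutation p of 0.605 to 0.979 and 0.316 to 0.864, adjusted p of r 0.979 for each). The 18M mice lay farthest from the median age. Without 18M-1 and 18M-2, which left only 18M-3 at that age, r was -0.62 for Tnp1 to Tnp2 and between -0.27 and 0.28 for the others.

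**Figure D3:**
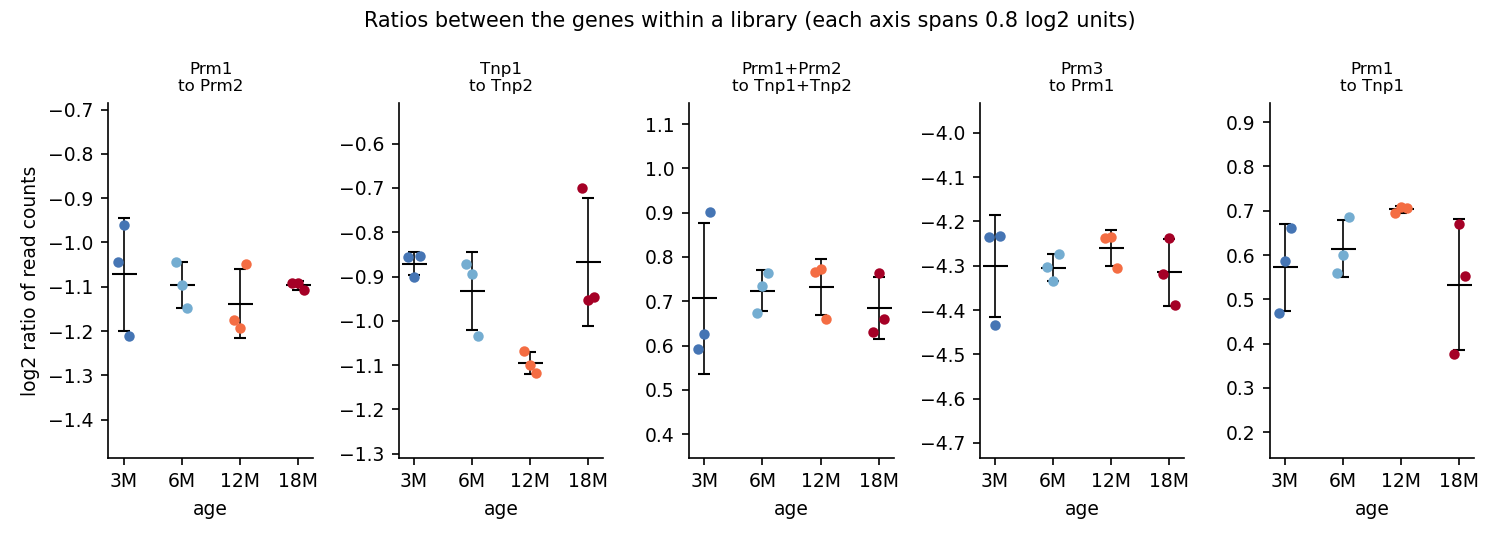
Log2 ratio of read counts between the genes in each of the 12 libraries, by age in months (3M to 18M), with the mean and SD of the 3 mice of an age, and a vertical span of 0.8 in every panel. The 12M mice lie below all others for Tnp1 to Tnp2 and above all others for Prm1 to Tnp1, a separation that was not tested. The 3M and 18M mice overlap in every ratio.

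Coverage along the transcripts was uneven. The median over libraries was 41853 reads per base in the first and 25995 in the second exon of Prm1, 51792 and 42562 in Prm2, 22775 and 20374 in Tnp1, and 38186 and 16116 in Tnp2. The second exon thus had 0.882 ± 0.023 of the coverage of the first in Tnp1 (SD, n = 12), 0.832 ± 0.046 in Prm2, 0.634 ± 0.030 in Prm1 and 0.424 ± 0.022 in Tnp2. Between 3M and 18M the exact permutation p of these ratios lay between 0.6 and 1.0 (unadjusted, with 0.1 the smallest that 3 against 3 mice allow).

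**Figure D4:**
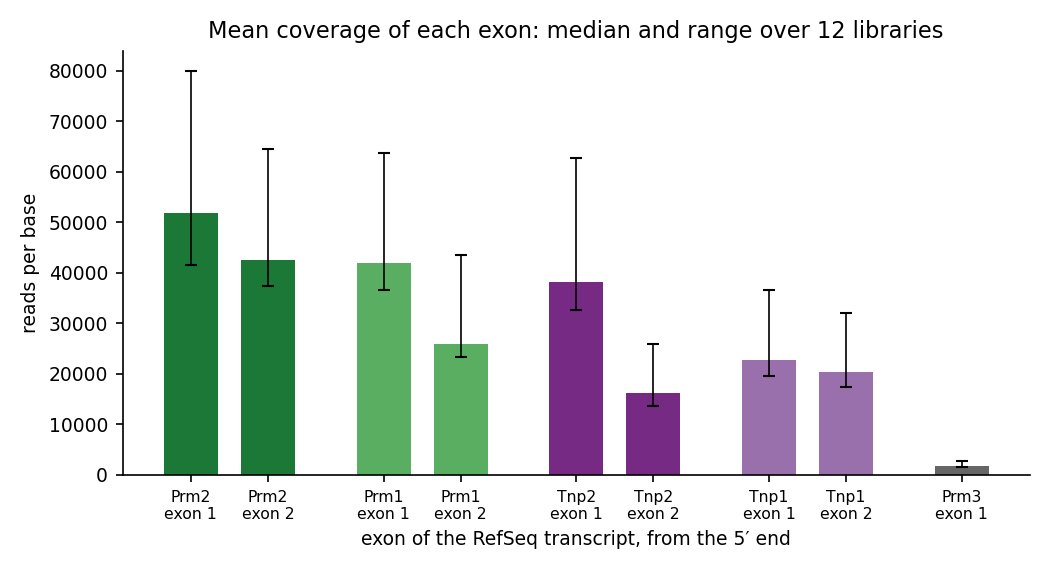
Mean coverage in reads per base of each exon of the annotated transcripts, exon 1 at the 5′ end, as the median over 12 libraries (bar) with the lowest and highest library (line). The second exon is lower in Prm2, Prm1, Tnp2 and Tnp1, most so in Tnp2, and the single exon of Prm3 has a median of 1769.

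Nearly all reads of the genes lay on the annotated transcripts: 98.4% for Prm1 and 100% for the other 4. The remaining 2 transcripts, MSTRG.7781.1 and MSTRG.7781.2, were assembled versions of Prm1 with a further exon upstream. MSTRG.7781.2 was given 13308 reads in 3M-3 and MSTRG.7781.1 14497 in 18M-1, and each had 4 reads or fewer in every other library. In those libraries they took 9.48% and 10.6% of the Prm1 reads. The reads sat on the exons shared with NM_013637, at up to 4023 and 4313 reads per base, while the exon of their own had 1.0 and 0.95 reads per base there. The sum per gene does not depend on how reads are divided between these transcripts.

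At the level of transcripts, 5 of the 7 passed the filter on low counts, the annotated transcript of each gene. None passed in edgeR between 3M and 18M, where 0.108% of 54472 transcripts did, or for the slope on age, where 0.00881% of 56784 did, with no unadjusted p under 0.05 in either. DESeq2 called none, where it called 3.58% and 1.80% of all transcripts. Their log2 changes from 3M to 18M lay between 0.07 for NM_013638 (Prm3) and 0.12 for NM_013694 (Tnp2).

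The kit did not keep the strand, so reads from both strands of the cluster cannot be told apart. On the plus strand 18 transcripts were assembled across it, and all 18 share bases with exons of the 4 cluster genes, up to 573 bases. In sum they were given 6755 to 11521 reads per library, 1.10% to 1.69% of those of Prm1, Prm2, Prm3 and Tnp2. Single transcripts were far less steady: MSTRG.7776.10 had a median of 0 reads and 3710 in 12M-3, and MSTRG.7776.17 a median of 28 and 1473 in 6M-1. The 6 of them named as antisense to Prm2 held 1.01% to 3.15% of the Prm2 reads. Counting them with Prm2 changed no call.

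The noncoding gene 1700027A15Rik, annotated in GENCODE vM21 as antisense on the plus strand (chr1:72984844-73025507), spans Tnp1. Its assembled transcript MSTRG.406.2 (chr1:73015899-73025507, 8352 nt), which the study placed beside Tnp1, overlaps it by 1 base. MSTRG.406.2 had 1.07 to 1.33 FPKM in 9 libraries, but 8.82 in 12M-3, 18.3 in 18M-1 and 7.0 in 18M-2. In those same 3 libraries the annotated transcript NR_038002 of the gene was at 0.016, 2.58 and 0.15 FPKM, against 319.6 to 411 in the other 9. The FPKM of the whole gene was 25.4, 45.7 and 15.7 there against 327 to 420.5 elsewhere. Its reads were 5946, 10536 and 3797 there against 8132 to 14481. In reads, 12M-3 and 18M-2 thus lay below the other 9 libraries, and 18M-1 lay among them.

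In CPM, 1700027A15Rik had a log2 change of -0.22 ± 0.35 from 3M to 18M (SE, adjusted p = 0.829 in edgeR). In the 3 libraries with high MSTRG.406.2, Tnp1 had 2053 CPM (12M-3, its highest), 1867 CPM (18M-1) and 1712 CPM (18M-2), against 1355 to 1988 CPM in the other 9. Whether the levels are related was not tested.

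The wider exchange of histones for protamines involves testis histone variants, remodellers, transcription factors and RNA-binding proteins. Of 33 symbols chosen for these roles, 32 were in the table and tested (the gene H2al2a is listed there as H2afb1). None passed between 3M and 18M in edgeR, with 5 unadjusted p under 0.05, and none for the slope, with 6 (12% and 15.4% of all features had such a p). DESeq2 called 1 of the 32 in both, beside 1.63% and 2.54% of all features. This was Tssk6, a spermatid kinase linked to histone removal, with a log2 change of 0.23 ± 0.06 (SE, adjusted p = 0.030) that had an adjusted p of 0.349 in edgeR. The median log2 change of the 32 was 0.01, that of all features, and 18 were positive. Of the 5 with an unadjusted p under 0.05 in edgeR from 3M to 18M, Tssk6 and Hils1 had positive log2 changes. The others were negative: Tdrd6 (-0.21), Rfx2 (-0.15) and Psme4 (-0.15).

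By role, the 7 histone variants had a median log2 change of 0.09 from 3M to 18M, led in level by Hils1, a spermatid linker histone, at 469 ± 37.1 FPKM (SD, n = 12). Hils1 had 412 ± 36.6 CPM at 3M and 472 ± 17.4 at 18M, a log2 change of 0.20 ± 0.07 (SE, adjusted p = 0.369 in edgeR). The 10 genes of remodelling and histone removal had a median of -0.03, and Hspa2, a chaperone of transition proteins and the highest of them at 410.3 FPKM, changed by -0.02 ± 0.04. None of these passed the test.

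The 6 transcription regulators had a median log2 change of 0.01, and Fhl5, the coactivator of CREM known as ACT, was highest at 158 FPKM with 0.16 ± 0.07 (SE, adjusted p = 0.447 in edgeR). The 7 genes of mRNA storage and translation had a median of 0.0027. Ybx2, the RNA-binding protein MSY2 that holds protamine mRNAs silent, was highest at 1079 ± 83 FPKM and had 0.03 ± 0.07 (adjusted p = 0.876 in edgeR). Of the kinases that modify protamines, Srpk1 was higher at 134 FPKM, with -0.08 ± 0.03 (adjusted p = 0.434 in edgeR).

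**Figure D5:**
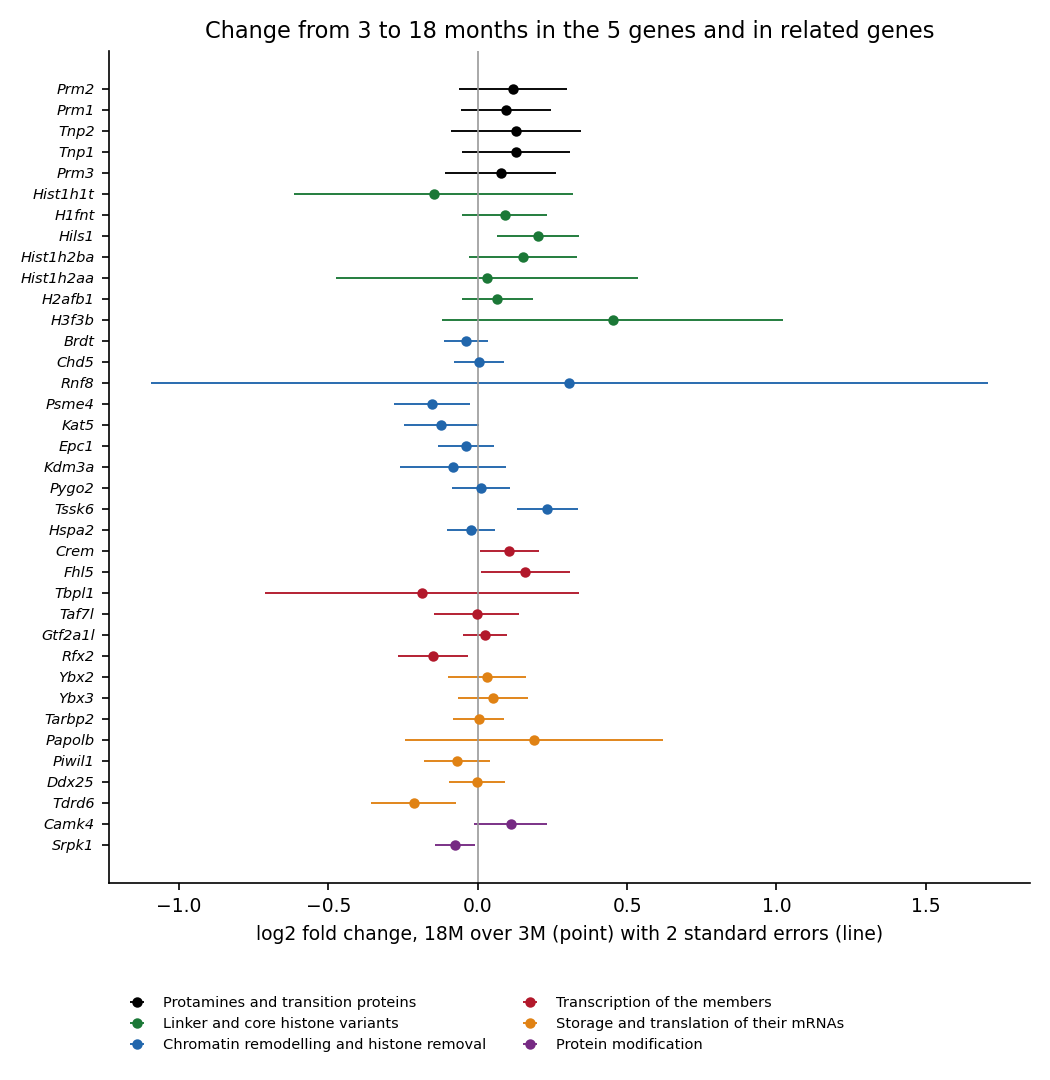
Log2 fold change of reads from 3M to 18M (point) with 2 standard errors (line) for the 5 genes in black and for 32 genes of the exchange of histones for protamines, coloured by role. The 5 genes lie between 0.08 and 0.13, and none of the genes drawn passed the test in edgeR.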

How the data were processed

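Testis RNA of 12 mice was depleted of ribosomal RNA and sequenced in pairs of reads without strand information. Per the labels and the submitters' processing notes, the authors aligned reads with HISAT2 to mm10 and assembled transcripts with StringTie (1.3.3b in the file headers). They deposited for each transcript an estimated count and an FPKM value. The count equals coverage times length over a read length of 101 in all 863604 values to within 1 read. Counts were not scaled between libraries, and FPKM only by the mapped fragments of each library. Exon coverage was read from the authors' assemblies.

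Estimated counts, deposited as whole numbers, were summed per gene over classes =, c, j and o and compared by the quasi-likelihood test of edgeR 4.0.16 (R 4.3.3, TMM, filterByExpr, Benjamini-Hochberg adjustment over all features, threshold 0.05), where each pairwise fit held the 6 libraries of its ages and the slope all 12. Standard errors come from this fit. FPKM served for levels only. Ratios and correlations used two-sided permutation tests (exact for 3 against 3, otherwise 100000 draws, seed 20210). Alternatives were DESeq2 1.42.0, other scalings, filters, classes and pseudocounts, the mouse number as a block, and each library left out. On simulated counts the tests recovered large changes and almost none of the small ones. The simulated sizes are not stated here, so the simulation does not show which changes were detectable for the protamine and transition protein genes. Their standard errors from 3M to 18M lay between 0.08 (Prm1) and 0.11 (Tnp2) on the log2 scale. Intervals around counts were not needed at this depth, and differences smaller than the spread between mice were not detectable.

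The 5 genes, the lists and the tests were chosen with earlier results of these data known. Named were the members, transcripts within 5000 bases of them, MSTRG.406.2, the 5 genes most correlated with them, and from the list of related genes those that passed and the highest of each role. Tssk6, Tdrd6, Rfx2, Psme4, Smcp, Akap4, Cabs1, Acrv1, Spaca1 and Acr were named after their values were seen. So were the 6 Leydig genes, 4 epididymal genes and the highest genes outside the family. Libraries of an age correlated at r of 0.979 to 0.984 across genes, none held identical values, and each counted as 1 replicate. Mice are called biological replicates in the design text. Ratios, correlations and sums were computed in Python 3.11.15 using scipy 1.17.1 and pandas 2.3.3.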

Additional observations from a re-analysis of the deposited data

How the results depend on the processing

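None of the 5 genes passed under any alternative run: the smallest adjusted p stayed between 0.348 and 0.863 from 3M to 18M, 0.220 and 0.645 for the slope, and 0.487 and 0.867 between consecutive ages, and their log2 changes from 3M to 18M and slopes stayed positive. Leaving out 1 library moved the log2 change from 3M to 18M between 0.031 and 0.166 for Prm1, 0.048 and 0.192 for Prm2, 0.030 and 0.207 for Tnp2 (lowest without 18M-3 for these 3), 0.0047 (without 3M-2) and 0.149 for Prm3, and 0.062 (without 3M-3) and 0.215 for Tnp1. The highest values came without 18M-1 for the protamines and without 3M-1 for the transition proteins. With the mouse number as a replicate block the smallest adjusted p were 0.681, 0.369 and 0.723, and no call on the members, transcripts, ratios or related genes changed. The numbers were not taken to pair the mice, since deviations of same-numbered libraries correlated at -0.07 to 0.07 and only 3 of 12 libraries correlated best with their own number. Among the related genes DESeq2 called 1 where edgeR called 0. Over all features from 3M to 18M, edgeR called 8 higher and 8 lower, DESeq2 116 and 182, and edgeR with the block 0. The sign of ratio differences between 18M and 3M was not stable. Leaving out 1 library moved the log2 difference of Prm1 to Prm2 from -0.095 to 0.031, of Tnp1 to Tnp2 from -0.079 to 0.048, of both protamines to both transition proteins from -0.079 to 0.076, of Prm3 to Prm1 from -0.081 to 0.023 and of Prm1 to Tnp1 from -0.11 to 0.039, and with FPKM Prm3 to Prm1 was 0.0015. The cause was not tested. The order of levels held in 12 of 12 libraries, in the medians of all 4 ages, and in 11 of 12 with class = transcripts alone. All 5 genes had a mean FPKM over 1, so that minimum left out none.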
